A study of Mus musculus with 9 samples.

Results

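The genes described here are the replication-dependent histone genes of the mouse, taken as every protein-coding gene of the deposited table whose symbol begins with Hist1h, Hist2h, Hist3h or Hist4h. There were 68 such genes among 45706 genes in all, of which 55 belonged to the Hist1 cluster on chromosome 13, 10 to the Hist2 cluster on chromosome 3, 2 to Hist3 on chromosome 11 and 1 to Hist4 on chromosome 6. By protein they comprised 6 H1, 19 H2A, 18 H2B, 12 H3 and 13 H4 genes. The study sequenced ribosome-depleted total RNA of satellite cells, the stem cells of skeletal muscle, at 3 stages with 3 libraries per stage from different animals. All came from muscles of wild-type C57Bl6 mice 12-20 weeks old. Freshly isolated cells were taken without culture, proliferating cells had grown for at least 3 days with 20% FCS and 2.5 ng/ml human FGF-2, and myotubes had been kept for a further 6 days in 2% horse serum. Cells of 1 library were not sorted by cell cycle phase, and in bulk RNA fewer cycling cells and less histone RNA per cell cannot be told apart.

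Histone proteins wrap the DNA, H2A, H2B, H3 and H4 as the core of the nucleosome and H1 as the linker histone that binds between nucleosomes. The replication-dependent genes supply the large amount needed while DNA is copied, and their RNA is made and degraded with S phase. Most such mRNAs have no poly(A) tail: they end a few bases after a short hairpin, the histone stem-loop, which is bound by the stem-loop binding protein Slbp. Replacement histones such as H1f0 and H3f3a are encoded elsewhere, carry introns or poly(A) tails and are made outside S phase too. Some replication-dependent genes are known to make longer, polyadenylated RNA in differentiated cells. Libraries of total RNA hold both forms, and the counts per gene used here do not separate them.

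The stem-loop is shown because it is the element that these mRNAs share and because its letters divide H4 from the other families. A match to the histone stem-loop consensus was found in the annotated GENCODE vM21 transcripts of 46 of the 68 genes. Of the 22 without a match, 15 had annotations that stop within 20 bases of the stop codon, before the place where it would lie. The matches took 8 forms. The stem GGCTCT paired with AGAGCC was found in H1, H2A, H2B and H3 genes and in no H4 gene, while the H4 genes had GGCCCT with AGGGCC or, in Hist1h4b and Hist1h4j, GGTCCT with AGGACC. The first form listed was the most frequent, with 26 genes, followed by that of Hist1h4d with 7 H4 genes and that of Hist1h3e with 6 genes. The hairpins below carry the stem in capitals and the loop and 5 flanking bases on each side in lower case, 5′ to 3′ in the sense of the gene, on GRCm38.
Hist1h1c, H1, chr13:23739507-23739532, plus strand: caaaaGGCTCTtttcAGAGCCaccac
Hist3h2a, H2A, chr11:58955167-58955192, plus strand: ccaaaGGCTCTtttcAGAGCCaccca
Hist2h2ac, H2A, chr3:96220413-96220438, minus strand: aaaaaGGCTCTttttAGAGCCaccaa
Hist1h2bj, H2B, chr13:22043633-22043658, plus strand: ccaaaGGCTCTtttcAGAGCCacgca
Hist1h3e, H3, chr13:23561898-23561923, minus strand: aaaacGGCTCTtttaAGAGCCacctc
Hist1h4d, H4, chr13:23581945-23581970, plus strand: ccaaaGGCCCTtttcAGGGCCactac
Hist1h4j, H4, chr13:21735432-21735457, plus strand: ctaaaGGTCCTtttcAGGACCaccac
Hist4h4, H4, chr6:136803993-136804018, minus strand: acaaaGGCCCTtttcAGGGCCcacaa

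The values are normalized read counts, that is gene counts put on a common scale and rounded by the authors. Library totals were 20111379 to 26209153 in freshly isolated cells, 17751754 to 18151883 in proliferating cells and 19454082 to 20768064 in myotubes. From the spacing of the low values, 1 read was worth 2.18 units in freshly isolated replicate 1 and 0.745 to 1.05 units in the other 8 libraries, so that replicate 1 was the shallowest, at about 12000000 reads against 19300000 to 24300000. It listed 51 of the 68 histone genes at 0, against 30 and 26 in replicates 2 and 3 of that stage, and 4 genes (Hist2h2ac, Hist1h3a, Hist1h4a and Hist1h4c) were at 0 there while both others had 10 or more. Of the 53 genes tested below, replicate 1 had the lowest value of its stage for 20 and the highest for 9, among them Hist1h1e, Hist1h1c and Hist4h4. Over all tested genes these shares were 41.9% and 39.7%, against 37.7% and 17% of the 53. The part of depth in these zeros was not tested. The summed satellite cell markers (Pax7, Myf5, Calcr, Chodl, Vcam1 and Cdh15) were 46788 to 50818 in freshly isolated cells, 7932 to 9570 in proliferating cells and 7581 to 8502 in myotubes. Single markers did not all follow this sum. Proliferating cells had 5 of the 6 called below the freshly isolated level, and Cdh15 was not called. From proliferating cells to myotubes 4 were called lower, while Chodl and Cdh15 were called higher. The summed myotube markers (Myog, Myh3, Acta1, Ckm and Tnnt3) were 684 to 1916, 9789 to 55276 and 524961 to 629696 in the same order. All 5 were higher in myotubes against proliferating cells, and 4 already in proliferating against freshly isolated cells. The summed markers of dividing myoblasts (Myod1, Mki67, Top2a, Ccnb1 and Cdk1) were 5188 to 7005, 63157 to 67732 and 20429 to 29966 in the same order of stages, so cycle genes had not returned to their freshly isolated level in the myotube cultures. Markers of other cell types also moved with the stages. In the order freshly isolated, proliferating and myotubes, the sums were 3178 to 4583, 41 to 48 and 651 to 850 for fibroblasts (Pdgfra, Dpt, Col1a1, Dcn and Pi16). They were 1913 to 2410, 75 to 108 and 31 to 32 for endothelium (Pecam1, Cdh5, Kdr, Tek and Emcn). Erythroid and Schwann cell sums were 15 to 23 and 76 to 203 in freshly isolated cells, 50 to 96 and 35 to 44 in proliferating cells, and 3 to 10 and 30 to 44 in myotubes. The globin genes Hba-a1 and Hbb-bs were at 0 to 5 in freshly isolated cells and at 0 in the cultured libraries. The part of such cells in the histone values was not tested.

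Added over all 68 genes, histone counts were 43.9 times higher in proliferating than in freshly isolated cells, and lower in myotubes than in proliferating cells, at 0.516 of their mean. The sums were 1076, 1106 and 1063 in freshly isolated cells, 50884, 47480 and 44211 in proliferating cells and 24697, 24666 and 24155 in myotubes. The 3 stages did not overlap. As a share of all counts this was 0.00411 to 0.00543% in freshly isolated cells, 0.249 to 0.286% in proliferating cells and 0.116 to 0.127% in myotubes. The mean sum was 47525 ± 3337 in proliferating cells against 1082 ± 22.1 in freshly isolated cells (SD, n = 3 each). Myotubes had 24506 ± 304 (SD, n = 3), which was 22.7 times the freshly isolated mean.

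The families followed the same course with different steps. H3 had the largest steps among the 5 families, with a ratio of 67 between proliferating and freshly isolated cells and of 0.378 between myotubes and proliferating cells. H2B had the smallest steps, with ratios of 30.8 and 0.71. For H1 the ratios were 52.4 and 0.51, for H2A 34.9 and 0.454, and for H4 34.9 and 0.439. The H2B sum in myotubes, 4934, 4602 and 4942, held 2395, 1956 and 2806 counts from the single gene Hist1h2bc, described below.

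**Figure D1:**
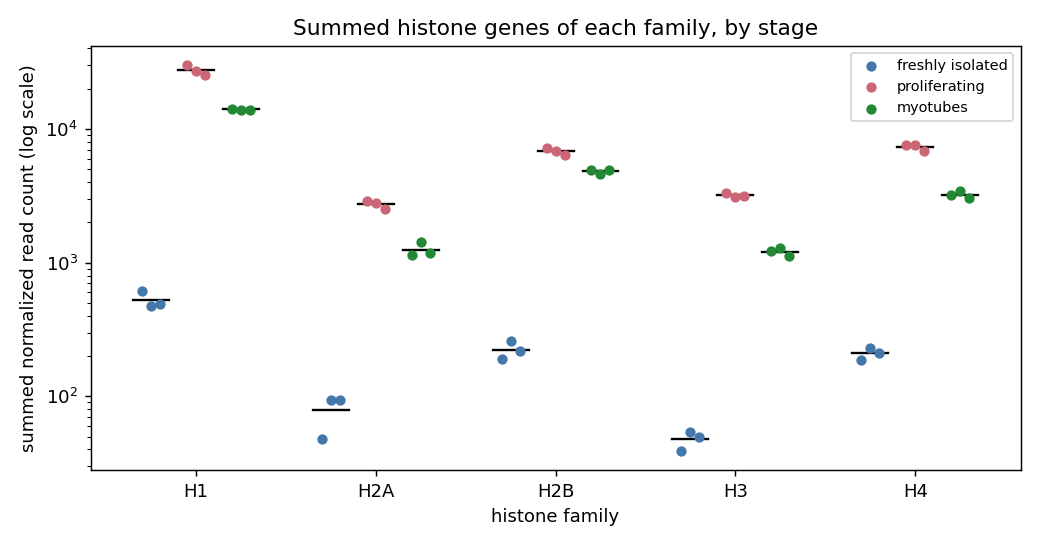
Summed normalized read count (log scale) of the H1, H2A, H2B, H3 and H4 genes in each library, with points for the 3 libraries of a stage and a bar for their mean. In each family the proliferating libraries lie highest, the myotube libraries next and the freshly isolated libraries lowest, with no overlap.

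For tests of single genes, 53 of the 68 reached 10 in at least 3 libraries and entered the fit with all 17291 genes that did (limma on log2 values after adding 1, called at an adjusted p below 0.05). They were 5 H1, 12 H2A, 13 H2B, 10 H3 and 13 H4 genes. The other 15 stayed at 9 or below in every library. Just inside the limit lay Hist2h3c2, which reached 11 or more in 3 libraries, and just outside it Hist3h2ba, which reached 6 or more in 3. In 32 of the 53 no freshly isolated library reached 10, so these genes entered through the cultured stages and had to be higher there. The counts for comparisons with freshly isolated cells are therefore an account of the genes and not evidence on their own.

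Between proliferating and freshly isolated cells, 50 of the 53 genes were called higher, where 37.6% of all tested genes were, and 1 was called lower, where 35.7% were. Hist2h2be was the gene called lower, and Hist3h2a and Hist2h3c2 were not called. The median log2 difference, proliferating minus freshly isolated, was 6.68 over the 53 and 0.07 over all tested genes. Among the 11 genes that had 10 or more in each freshly isolated library, 9 were higher (Hist1h1a, Hist1h1c, Hist1h1e, Hist1h2bc, Hist1h2be, Hist1h3e, Hist1h4d, Hist2h4 and Hist4h4). The other two of those were Hist2h2be and Hist3h2a.

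Between myotubes and proliferating cells, 27 genes were called lower, where 25.5% of all tested genes were, and 3 were called higher, where 28.6% were. The 3 higher genes were Hist1h2bc, Hist2h2be and Hist3h2a. In 48 of the 53 the myotube libraries lay below all proliferating libraries, which held for 33.5% of all tested genes. The median log2 difference, myotubes minus proliferating, was -1.23 over the 53 and 0.04 over all tested genes. The number called lower depended on the spread taken from the freshly isolated libraries: it was 46 when only the myotube and proliferating libraries entered the fit, and 44 without freshly isolated replicate 1. The number over all 17291 tested genes rose too, from 4402 to 5416 and 5343 in these fits. Within stages the median SD of the 53 genes on the log2 scale was 0.243 in myotubes and 0.143 in proliferating cells, against 0.652 in freshly isolated cells. Leaving out any 1 of the proliferating or myotube libraries gave 15 to 21 histone genes called lower, and 3695 to 3969 of all tested genes.

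Against freshly isolated cells, 51 of the 53 genes were higher in myotubes, where 40.2% of all tested genes were. Hist2h2be and Hist2h3c2 were not called. No gene was called lower by limma and none had an unadjusted p below 0.05 in that direction, where 37.3% of all tested genes were called lower. Both calls, higher in proliferating than in freshly isolated cells and lower in myotubes than in proliferating cells, were reached by 27 of the 53 genes and by 12.2% of all tested genes. The 3 comparisons share their libraries and are not independent.

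**Figure D2:**
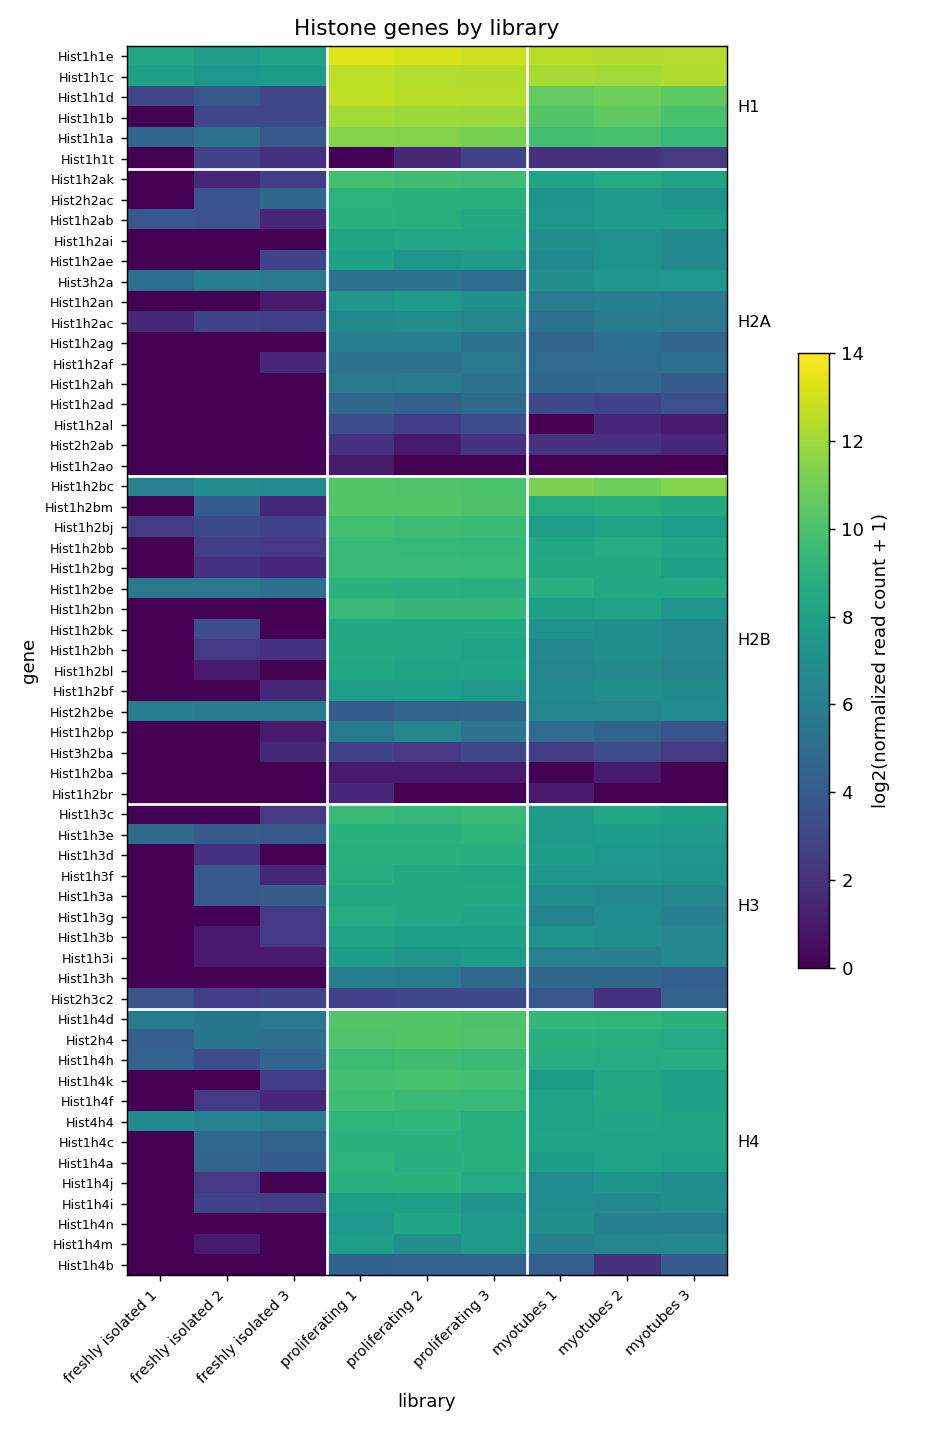
Heat map of log2(normalized read count + 1) for the 60 histone genes above 0 in at least 1 library (rows, ordered by family and mean) in the 9 libraries (columns, by stage). The proliferating columns are brightest for most rows, Hist1h2bc, Hist2h2be and Hist3h2a are brightest in the myotube columns, and freshly isolated replicate 1 has more rows at 0 than the other libraries.

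The linker histone genes held the most counts of the 5 families and changed in makeup between stages. Hist1h1e (chr13:23620629-23622558) had 325, 231 and 263 in freshly isolated cells, 10251, 9207 and 8280 in proliferating cells and 5825, 5302 and 5562 in myotubes. Hist1h1c (chr13:23738808-23740367) had 259, 177 and 196, then 6173, 5656 and 5308, and 4679, 4241 and 5167 in the same stages. For both genes the stages did not overlap. Hist1h1e overlaps Hist1h2be on the same strand, and 23.8% of its 50-base windows also occur there. Hist1h1e was higher in proliferating than in freshly isolated cells by 5.09 ± 0.13 on the log2 scale (SE, adjusted p = 7.45e-10) and lower in myotubes than in proliferating cells, at -0.73 ± 0.13 (adjusted p = 0.000836). Hist1h1c differed by 4.77 ± 0.14 in the first comparison (adjusted p = 1.99e-09) and by -0.28 ± 0.14 in the second, which was not called with all libraries (adjusted p = 0.115) and was called with the 2 stages alone (adjusted p = 0.0323).

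Hist1h1d and Hist1h1b moved further than these. Hist1h1d (chr13:23553262-23560686) had 7, 13 and 7 in freshly isolated cells, 6540, 5708 and 5632 in proliferating cells and 1595, 1956 and 1491 in myotubes. Hist1h1b (chr13:21779883-21780625) had 0, 7 and 7, then 4261, 3983 and 3827, and 1241, 1449 and 992. In freshly isolated cells both were near the limit of detection, which 3 reads per library put at a mean of 4.27 units. Hist1h1d was higher in proliferating than in freshly isolated cells by 9.27 ± 0.21 (adjusted p = 4.70e-10) and lower in myotubes than in proliferating cells, at -1.83 ± 0.21 (adjusted p = 5.07e-05). Hist1h1b differed by 9.97 ± 0.65 (adjusted p = 3.61e-07), or 8.97 without freshly isolated replicate 1, and by -1.73 ± 0.65 in myotubes against proliferating cells (adjusted p = 0.046). That last call was lost without any 1 of the proliferating or myotube libraries (adjusted p = 0.0787 to 0.126). Hist1h1a had 14 to 36, 2234 to 2734 and 675 to 984 in the 3 stages and was called in the same directions.

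Within the summed H1 counts, Hist1h1c made up 40 ± 2.3% in freshly isolated cells, 20.8 ± 0.194% in proliferating cells and 33.5 ± 3.42% in myotubes (SD, n = 3 each). Hist1h1d made up 1.78 ± 0.867%, 21.7 ± 0.635% and 12 ± 1.78%. The myotube shares lay apart from the proliferating shares for each of the 5 expressed H1 genes. The exact two-sided permutation p was 0.1 for each, the smallest that 3 against 3 libraries allow. Per kilobase of annotated exon, Hist1h1c had 135, 3662 and 3010 counts in the 3 stages and Hist1h1e 141, 4791 and 2882. Hist1h1b stood above both in proliferating cells, at 5415, but this order depends on the annotated lengths. The annotation of Hist1h1b ends at the stop codon, while those of Hist1h1c and Hist1h1e run 840 and 1153 bases past the stem-loop. Levels per kilobase of Hist1h1d, 1.21, 803 and 226, rest on an annotated length of 7425 bases, far longer than its coding part. Hist1h1t, the testis-specific H1 gene, stayed at 0 to 6 in every library.

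Below are the 250 bases before the RefSeq start of Hist1h1d and of Hist1h4k, an H4 gene described below, on GRCm38.p6. They are shown because the promoters of the families carry different motifs while their genes moved together. Capitals mark the TATA box TATAAA and the CCAAT box. They also mark the H1 box, whose letters are AAACACA. Likewise the H4 core is in capitals, with the letters GGTCCG. Each was searched on both strands, so that a CCAAT box on the other strand appears as its reverse. The windows of the motif counts had 250 bases before and 50 after the start.
Hist1h1d, chr13:23554782-23555031, plus strand: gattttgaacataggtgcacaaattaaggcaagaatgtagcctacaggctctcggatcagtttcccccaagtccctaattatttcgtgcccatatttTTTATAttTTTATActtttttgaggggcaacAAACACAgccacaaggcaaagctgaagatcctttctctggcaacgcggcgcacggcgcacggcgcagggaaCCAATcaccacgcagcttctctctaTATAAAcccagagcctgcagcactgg
Hist1h4k, chr13:21750554-21750803, minus strand: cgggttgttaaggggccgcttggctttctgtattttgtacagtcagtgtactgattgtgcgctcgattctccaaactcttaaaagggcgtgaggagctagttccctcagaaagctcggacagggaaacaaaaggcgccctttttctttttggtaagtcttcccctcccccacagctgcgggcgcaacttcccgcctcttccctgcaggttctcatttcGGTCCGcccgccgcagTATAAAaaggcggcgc
Promoters were found for 62 of the 68 genes. AAACACA was present in 5 of 6 H1 promoters and in 9 of 62 in all (7.18% of all RefSeq mouse promoters). GGTCCG was present in 11 of 12 H4 promoters and in 13 of 62 in all (8.25% of all). CCAAT was present in each H1, H2A, H2B and H3 promoter matched and in 3 of 12 H4 promoters (37.4% of all). TATAAA was present in 35 of 62 (13.6% of all). The octamer ATTTGCAT, the site of the factor encoded by Pou2f1, was found in 7 of 18 H2A and 6 of 16 H2B promoters and in no H1, H3 or H4 promoter (1.74% of all). A match describes the letters of the window and is not a measured binding site.

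Among the H2A genes, 11 of the 12 tested were higher in proliferating than in freshly isolated cells, where 37.6% of all tested genes were. In myotubes against proliferating cells 6 were lower and 1 higher, where 25.5% and 28.6% of all tested genes were. Hist1h2ak (chr13:21753435-21753827) had 0, 2 and 5 in freshly isolated cells, 889, 837 and 762 in proliferating cells and 287, 381 and 276 in myotubes. Hist1h2ab (chr13:23751126-23751598) had 13, 11 and 2, then 467, 444 and 368, and 171, 190 and 196. Hist1h2ai (chr13:21716422-21716814) was at 0 in all freshly isolated libraries and had 288, 329 and 329 in proliferating cells and 120, 146 and 99 in myotubes. The proliferating libraries lay highest for each of these genes, the freshly isolated libraries lowest, and no stages overlapped. Set against 3 reads per library, Hist1h2ai was at least 73.8-fold higher in proliferating and at least 28.5-fold higher in myotubes than in freshly isolated cells. These bounds take the reads as its own, but 9.88% of its 50-base windows were free of a match in another annotated transcript. In myotubes against proliferating cells Hist1h2ai differed by -1.38 ± 0.28 on the log2 scale (adjusted p = 0.00208) and Hist1h2ak by -1.41 ± 0.52 (adjusted p = 0.0427, lost when any 1 myotube or proliferating library, or freshly isolated replicate 2, was left out). Hist1h2ab, at -1.19 ± 0.49, was not called (adjusted p = 0.064). Between proliferating and freshly isolated cells Hist1h2ak differed by 8.30 ± 0.52, with 7.61 without freshly isolated replicate 1 and 8.90 without replicate 3. Hist1h2ab differed by 5.74 ± 0.49, or 5.04 without freshly isolated replicate 3. The 7 H2A genes not named individually had 0 to 6, 19 to 253 and 6 to 140 in the 3 stages.

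Hist3h2a (chr11:58954685-58956830), the H2A gene of the small Hist3 locus, differed from the other H2A genes in its course. It had 33, 63 and 47 in freshly isolated cells, 38, 39 and 31 in proliferating cells and 122, 157 and 173 in myotubes. The myotube libraries lay above all others, while the proliferating and freshly isolated libraries overlapped. It was higher in myotubes than in proliferating cells by 2.03 ± 0.29 (adjusted p = 0.000213) and than in freshly isolated cells by 1.67 ± 0.29 (adjusted p = 0.000389). Between proliferating and freshly isolated cells it differed by -0.36 ± 0.29 (adjusted p = 0.292), which without freshly isolated replicate 1 was -0.59 and called (adjusted p = 0.0492). Its annotated transcript runs 1643 bases past the stem-loop printed above and has a polyadenylation signal in its last 40 bases. It overlaps Trim17 on the same strand, and 31.5% of its 50-base windows also occur in Trim17 transcripts. Trim17 had 44, 39 and 33 in myotubes against 39, 37 and 41 in proliferating cells.

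Of the 13 H2B genes tested, 12 were higher and 1 was lower in proliferating cells against freshly isolated ones. In myotubes against proliferating cells 5 were lower and 2 higher. Over all tested genes 37.6% were higher and 35.7% lower in the first comparison, and 25.5% lower and 28.6% higher in the second. Hist1h2bj (chr13:22043214-22043676), whose hairpin is printed above, had 4, 8 and 6 in freshly isolated cells, 880, 787 and 752 in proliferating cells and 233, 276 and 233 in myotubes. It differed by 6.89 ± 0.24 between proliferating and freshly isolated cells (adjusted p = 5.26e-09) and by -1.70 ± 0.24 between myotubes and proliferating cells (adjusted p = 0.000174). Hist1h2bm (chr13:21722044-21722567) had 0, 16 and 2, then 1200, 1218 and 1092, and 385, 445 and 365 in the 3 stages. Hist1h2bb (chr13:23746734-23747241) had 0, 5 and 4, then 729, 653 and 632, and 330, 393 and 286. For both genes the myotube libraries lay below all proliferating libraries, but the fit over 9 libraries did not call the differences of -1.56 ± 0.77 (adjusted p = 0.116) and -1.0 ± 0.56 (adjusted p = 0.157). Against freshly isolated cells Hist1h2bm was higher in proliferating cells by 8.30 ± 0.77, with 7.36 and 9.40 without freshly isolated replicates 1 and 2, and Hist1h2bb by 7.75 ± 0.56, or 6.94 without replicate 1. The 8 other H2B genes had 0 to 46, 40 to 707 and 11 to 450. Hist1h2bn, at 0 in all freshly isolated libraries, was at least 146-fold higher in proliferating and at least 53-fold higher in myotubes than in freshly isolated cells.

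Hist1h2bc (chr13:23684199-23692908) was the H2B gene with the most counts in myotubes and rose again there. It had 74, 114 and 106 in freshly isolated cells, 1164, 1117 and 1038 in proliferating cells and 2395, 1956 and 2806 in myotubes. Its libraries rose over the 3 stages with no overlap. The log2 difference was 3.51 ± 0.18 between proliferating and freshly isolated cells (adjusted p = 6.34e-08), 1.09 ± 0.18 between myotubes and proliferating cells (adjusted p = 0.000493) and 4.60 ± 0.18 between myotubes and freshly isolated cells (adjusted p = 8.60e-09). Per kilobase of annotated exon it had 2064 counts in myotubes, behind Hist1h1c with 3010 and Hist1h1e with 2882. Its annotated transcript has 2 exons joined over an intron of 7554 bases, with 742 bases after the stop codon. The spliced form has no stem-loop match and no polyadenylation signal in its last 40 bases.

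Hist2h2be (chr3:96221119-96223738), an H2B gene of the Hist2 cluster, was the single histone gene whose level was called lower when proliferating cells were set against freshly isolated ones. It had 65, 52 and 56 in freshly isolated cells, 15, 21 and 24 in proliferating cells and 83, 81 and 110 in myotubes. The proliferating libraries lay below all others and the myotube libraries above all others. The log2 difference was -1.50 ± 0.28 between proliferating and freshly isolated cells (adjusted p = 0.000758) and 2.15 ± 0.28 between myotubes and proliferating cells (adjusted p = 0.000119). Between myotubes and freshly isolated cells it was 0.65 ± 0.28 (adjusted p = 0.0587), called without freshly isolated replicate 1 (adjusted p = 0.0331) or proliferating replicate 1 (adjusted p = 0.0464). Its annotated transcript is 1 exon of 2620 bases with 2192 after the stop codon, a polyadenylation signal in its last 40 bases and no stem-loop match. All of its 50-base windows were found in no other annotated transcript.

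**Figure D3:**
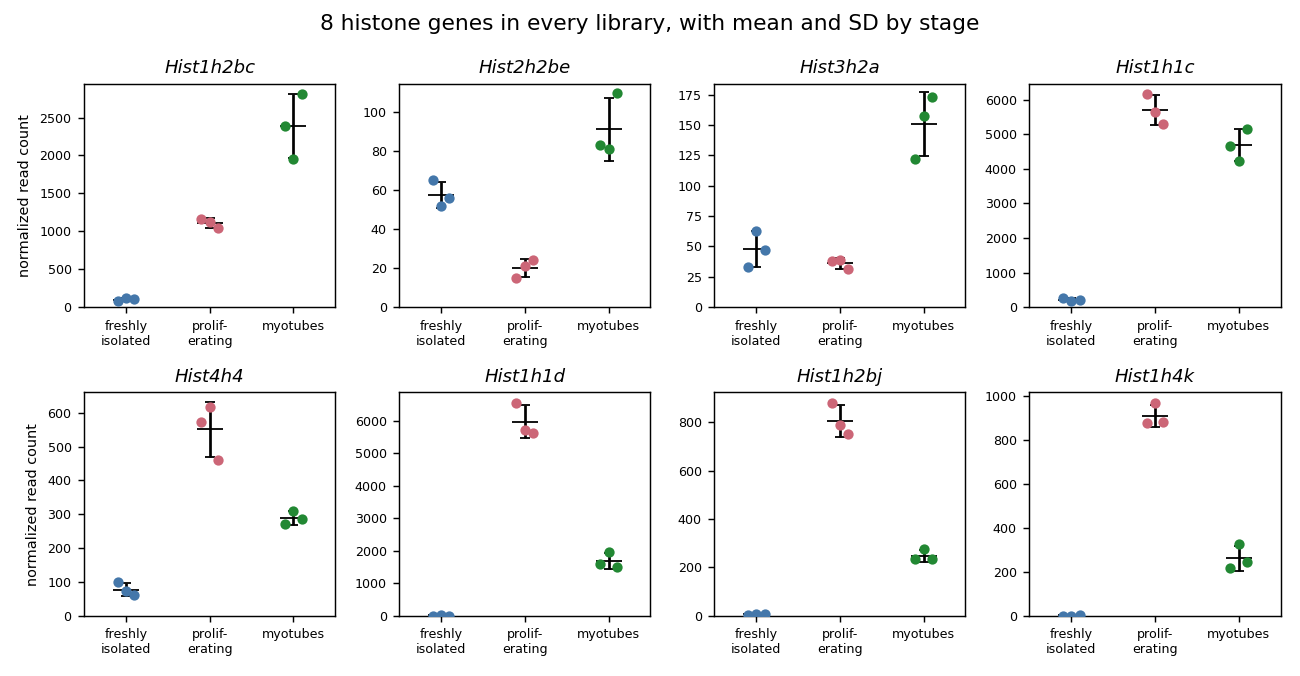
Normalized read count of 8 histone genes in each library at the 3 stages, with points for libraries and a dash with error bars for the mean and SD (n = 3). Hist1h2bc, Hist2h2be and Hist3h2a are highest in myotubes, and the other 5 are highest in proliferating cells, such as Hist1h1d with 5632 to 6540 there against 7 to 13 in freshly isolated cells.

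Many H2A and H2B genes stand head to head, transcribed apart from a short shared interval. There were 13 pairs of histone genes that did so within 1000 bases, of which 12 joined an H2A and an H2B gene, and both genes were tested in 9 of these. In 7 of the 9 pairs both genes had lower means in myotubes than in proliferating cells. In the other two the H2B gene was called higher while the H2A partner had a lower mean. Hist1h2ac, 250 bases from Hist1h2bc, had 36, 51 and 48 in myotubes against 103, 107 and 84 in proliferating cells (log2 difference -1.11, adjusted p = 0.031). That call was lost without any 1 of the proliferating or myotube libraries (adjusted p = 0.0539 to 0.113). Hist2h2ac (chr3:96220361-96220880), 238 bases from Hist2h2be, had 153, 190 and 150 in myotubes against 532, 513 and 480 in proliferating cells. That difference of -1.63 ± 0.94 was not called in the fit over 9 libraries (adjusted p = 0.169), where the freshly isolated values of 0, 12 and 26 set the spread, and was called with the 2 stages alone (adjusted p = 2.96e-05) and without freshly isolated replicate 1 (adjusted p = 0.000154).

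The ratio of H2B to H2A counts within a pair shows the split in each library. For Hist1h2bc over Hist1h2ac it was 66.5, 38.4 and 58.5 in myotubes against 11.3, 10.4 and 12.4 in proliferating cells. For Hist2h2be over Hist2h2ac it was 0.542, 0.426 and 0.733 in myotubes against 0.0282, 0.0409 and 0.05 in proliferating cells. In both pairs the ratios of the stages did not overlap, and the log2 ratio was higher in myotubes by 2.21 and 3.78. For Hist1h2bj over Hist1h2ag, a pair in which both genes had lower means in myotubes (Hist1h2bj called, Hist1h2ag not, adjusted p = 0.0559), the ratio was 9.71, 8.36 and 10.1 in myotubes against 14, 12.7 and 20.9 in proliferating cells, a log2 difference of -0.75. Over all 9 pairs the exact two-sided permutation p was 0.1 for 5 pairs, the smallest possible, and 0.18 after Benjamini-Hochberg adjustment. This test cannot reach 0.05 with 3 against 3 libraries, and no pair was called by it.

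**Figure D4:**
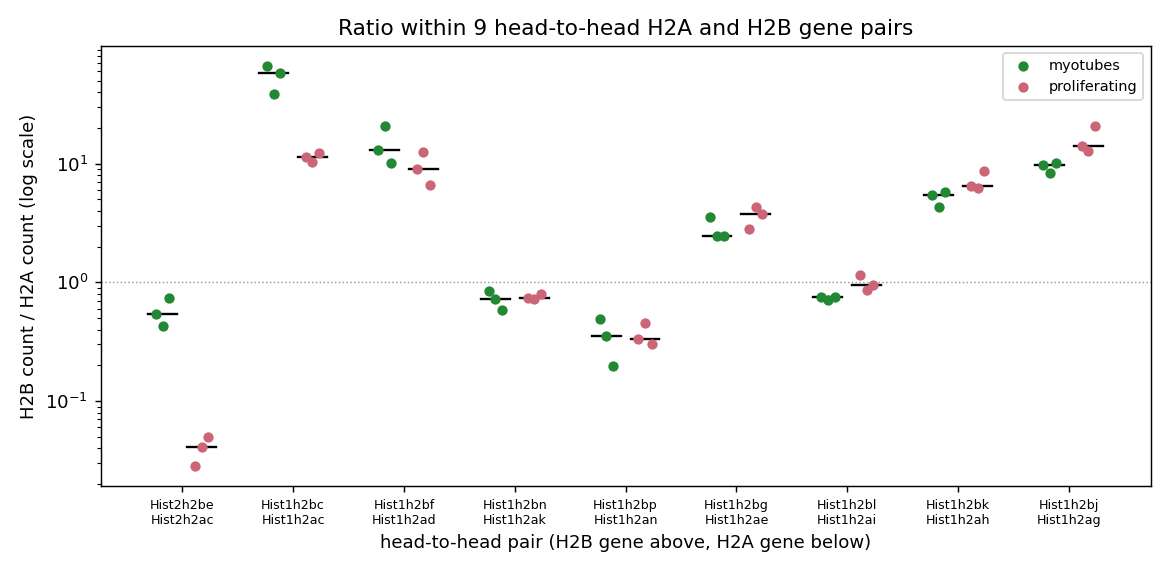
Ratio of H2B to H2A normalized counts (log scale) in 9 head-to-head gene pairs, with points for the 3 myotube and the 3 proliferating libraries of each pair and a bar for their median. Hist2h2be over Hist2h2ac and Hist1h2bc over Hist1h2ac lie higher in all myotube libraries, by 3.78 and 2.21 on the log2 scale, while the other 7 pairs differ by 0.75 or less in either direction.

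The 250 bases before the RefSeq start of the H2A gene of 3 pairs span nearly all of the interval to the H2B partner and are printed to show what the 2 genes share, with the octamer (ATGCAAAT on this strand), TATAAA and CCAAT in capitals. All are on the minus strand of GRCm38.p6, and the first bases of the first and second sequence already lie in the annotated H2B partner.
Hist1h2ac, partner Hist1h2bc, chr13:23683960-23684209: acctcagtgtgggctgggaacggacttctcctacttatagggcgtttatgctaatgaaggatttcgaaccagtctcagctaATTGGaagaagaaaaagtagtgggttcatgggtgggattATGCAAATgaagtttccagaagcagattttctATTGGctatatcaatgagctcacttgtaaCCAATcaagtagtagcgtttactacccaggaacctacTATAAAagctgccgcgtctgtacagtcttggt
Hist2h2ac, partner Hist2h2be, chr3:96220881-96221130: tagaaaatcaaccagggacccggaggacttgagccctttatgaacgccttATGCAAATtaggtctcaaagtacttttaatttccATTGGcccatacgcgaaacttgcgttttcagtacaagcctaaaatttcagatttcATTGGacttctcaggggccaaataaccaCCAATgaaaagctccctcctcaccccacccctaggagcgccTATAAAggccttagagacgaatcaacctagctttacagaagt
Hist1h2ag, partner Hist1h2bj, chr13:22042950-22043199: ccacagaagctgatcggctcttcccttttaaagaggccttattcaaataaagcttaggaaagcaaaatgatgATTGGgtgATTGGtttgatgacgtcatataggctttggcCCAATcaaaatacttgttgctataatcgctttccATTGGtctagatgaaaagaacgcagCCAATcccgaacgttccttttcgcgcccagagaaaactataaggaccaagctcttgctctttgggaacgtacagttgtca
The first and second sequence hold the octamer, and TATAAA near the H2A start, and the third holds neither and has CCAAT or its reverse at 5 places. These are letters of 3 windows, and no relation between them and the direction of the genes was tested.

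Of the 10 H3 genes tested, 9 were higher in proliferating than in freshly isolated cells, where 37.6% of all tested genes were. In myotubes against proliferating cells 3 were called lower, a count near the 25.5% of all tested genes. In 9 of the 10, however, the myotube libraries lay below all proliferating libraries, which held for 33.5% of all tested genes. Hist1h3e (chr13:23561534-23562369) had 28, 16 and 14 in freshly isolated cells, 495, 478 and 547 in proliferating cells and 187, 207 and 194 in myotubes. Its stages did not overlap, and it differed by 4.70 ± 0.25 between proliferating and freshly isolated cells (adjusted p = 8.07e-08) and by -1.36 ± 0.25 between myotubes and proliferating cells (adjusted p = 0.000981). Hist1h3c (chr13:23744973-23745602) had 0, 0 and 4, then 686, 637 and 709, and 213, 318 and 250. Hist1h3d (chr13:23575763-23577011) had 0, 3 and 0, then 440, 433 and 424, and 205, 177 and 168. With about 3 reads in freshly isolated cells, Hist1h3d was 432 times higher in proliferating than in freshly isolated cells, with a 95% exact Poisson interval of 148 to 2096 that covers counting error only. Hist1h3f (chr13:23544052-23545312) had 0, 14 and 2, then 414, 359 and 327, and 168, 161 and 139. For these 3 genes the myotube libraries lay below all proliferating libraries, with log2 differences of -1.39 ± 0.54 for Hist1h3c (adjusted p = 0.0518), -1.24 ± 0.48 for Hist1h3d (adjusted p = 0.0524) and -1.23 ± 0.76 for Hist1h3f (adjusted p = 0.199). All 3 were called when the fit held the 2 stages alone. Their log2 differences between proliferating and freshly isolated cells ranged from 8.24 to 9.40, from 7.76 to 8.76 and from 5.77 to 7.72 in that order of genes over the fits that each left out 1 library. Hist2h3c2 (chr3:96238108-96239127), the H3 gene of the Hist2 cluster that was tested, had 11, 5 and 6, then 6, 7 and 8, and 13, 3 and 20, and was not called in any comparison (adjusted p = 0.554 to 1). Of its 50-base windows, 63.5% also occur in the annotated transcript Gm20634. The other 5 H3 genes had 0 to 15, 27 to 386 and 17 to 144.

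All 13 H4 genes were tested and all were higher in proliferating than in freshly isolated cells, where 37.6% of all tested genes were. In myotubes against proliferating cells 9 were lower, where 25.5% of all tested genes were. Hist1h4d (chr13:23581598-23582735), whose hairpin is printed above, had 50, 43 and 46 in freshly isolated cells, 1208, 1184 and 1081 in proliferating cells and 627, 594 and 513 in myotubes. It differed by 4.61 ± 0.13 in the first step (adjusted p = 1.50e-09) and by -1.0 ± 0.13 in the second (adjusted p = 0.000107). Hist1h4k (chr13:21750194-21750505) had 0, 0 and 5, then 874, 967 and 883, and 215, 325 and 244. Its log2 difference between proliferating and freshly isolated cells, 8.96 ± 0.59, was 9.83 without freshly isolated replicate 3. Its difference of -1.81 ± 0.59 between myotubes and proliferating cells (adjusted p = 0.0251) lost its call without any 1 of the proliferating libraries, myotube replicate 1 or myotube replicate 3 (adjusted p = 0.0613 to 0.0792). Hist1h4h (chr13:23531050-23531519) had 20, 9 and 23, then 768, 826 and 742, and 418, 405 and 423. Its difference of -0.90 ± 0.29 (adjusted p = 0.0217) was not called without any 1 of the proliferating or myotube libraries (adjusted p = 0.0522 to 0.0683). The stages of these genes did not overlap. The 8 H4 genes not named individually had 0 to 28, 19 to 812 and 3 to 364.

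The H4 genes outside the Hist1 cluster took the same course. Hist2h4 (chr3:96261682-96263311) had 17, 43 and 34 in freshly isolated cells, 1128, 1188 and 1146 in proliferating cells and 470, 458 and 374 in myotubes. Hist4h4 (chr6:136801553-136804415) had 100, 72 and 61, then 573, 618 and 461, and 270, 309 and 287. Neither gene's stages overlapped. Hist2h4 differed by 5.25 ± 0.28 between proliferating and freshly isolated cells (adjusted p = 8.67e-08) and by -1.42 ± 0.28 between myotubes and proliferating cells (adjusted p = 0.0017). Hist4h4 differed by 2.83 ± 0.20 (adjusted p = 6.02e-07) and -0.92 ± 0.20 (adjusted p = 0.00291), and its annotated transcript runs 2445 bases past the stem-loop with a polyadenylation signal in its last 40 bases.

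Most histone genes detected in all freshly isolated libraries had long annotated 3′ ends. Of the 53 tested genes, 14 had 500 or more bases annotated after the stop codon, and 9 of these 14 had 10 or more in each freshly isolated library, against 2 of the other 39. Per kilobase of annotated exon, the median freshly isolated level was 21 in the 14 genes and 2.7 in the 39, while in proliferating cells the medians were 469 and 654, and in myotubes 187 and 234. The 3 genes higher in myotubes than in proliferating cells were all among the 14, of which 7 were lower. Among the 39, none was higher and 20 were lower, where 28.6% and 25.5% of all tested genes were. The median log2 differences were -0.84 in the 14 genes and -1.36 in the 39. The genes were also split by a polyadenylation signal in the last 40 annotated bases, beside the same shares of all tested genes. Of 12 genes with the signal 2 were higher and 5 lower in myotubes than in proliferating cells. Of 41 without it 1, Hist1h2bc, was higher and 22 were lower. Longer annotations also gather more reads, and which RNA form the reads came from was not tested.

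**Figure D5:**
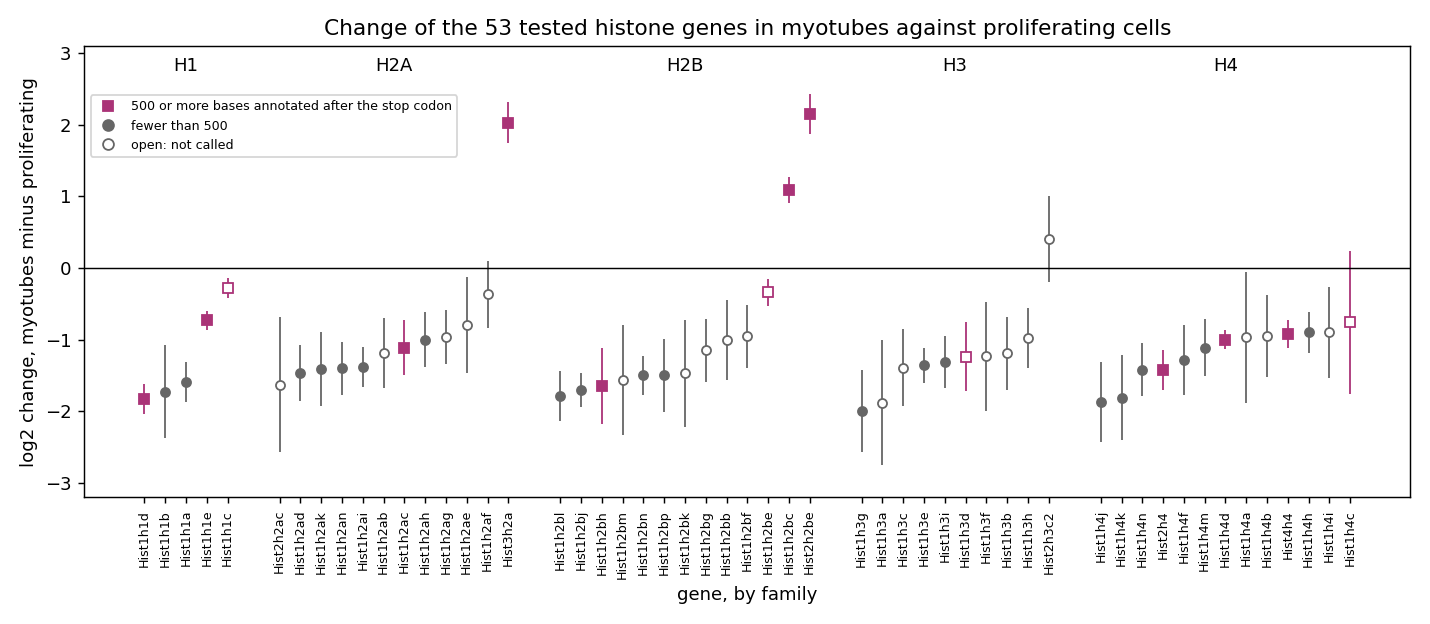
Log2 difference between myotubes and proliferating cells (myotubes minus proliferating, bars are SE) for the 53 tested histone genes by family, with filled symbols for genes called and squares for genes with 500 or more bases annotated after the stop codon. Hist3h2a, Hist1h2bc and Hist2h2be lie at 2.03, 1.09 and 2.15, and 49 genes lie below 0.

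For 5 replication-dependent genes listed as able to make polyadenylated RNA (Hist1h1c, Hist1h2bc, Hist2h2be, Hist4h4 and Hist3h2a), 3 were higher, 1 was lower and 1 was not called in myotubes against proliferating cells. In proliferating against freshly isolated cells 3 were higher, 1 was lower and 1 was not called. Over all tested genes 28.6% were higher and 25.5% lower in the first comparison, and 37.6% and 35.7% in the second. The list was drawn up with results of these libraries known and supports nothing by itself. Their summed counts were 531, 478 and 466 in freshly isolated cells, 7963, 7451 and 6862 in proliferating cells and 7549, 6744 and 8543 in myotubes, so that the myotube and proliferating libraries overlapped.

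Of the 15 genes that were not tested, 8 were at 0 in every library. They were Hist1h2aa, Hist1h2ap, Hist1h2bq, Hist2h2aa1, Hist2h2aa2, Hist2h2bb, Hist2h3b and Hist2h3c1. For 7 of these 8, at most 7% of their 50-base windows were free of a match in another annotated transcript, and Hist2h2aa1, Hist2h2aa2, Hist2h2bb, Hist2h3b and Hist2h3c1 had no such window. A value of 0 for these therefore does not show that the gene was silent, since the counting of reads with several matches is not stated in the labels. Hist1h2aa, a testis H2A gene, had 76.2% of its windows free of matches. The 7 others, Hist1h1t, Hist1h2al, Hist1h2ao, Hist2h2ab, Hist1h2ba, Hist1h2br and Hist3h2ba, had at most 9 in any library. Among the tested genes too, 24 of 53 had fewer than 50% unique windows, with a lowest value of 6% for Hist1h2af, so counts of near-identical H2A, H2B, H3 and H4 copies may be low or exchanged between copies. The 24 were 9 H2A, 5 H2B, 6 H3 and 4 H4 genes, among them Hist1h2ai at 9.88%, Hist1h2bn at 13.6% and Hist1h2bj at 40.6%. The share was 91.5% or more for the H1 genes except Hist1h1e, at 68%.

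Genes whose products make and end histone mRNA were measured in the same libraries. The counts of the lists that follow stand beside 37.6% of all tested genes higher and 35.7% lower in proliferating against freshly isolated cells, and 28.6% higher and 25.5% lower in myotubes against proliferating cells. Of 14 genes for histone mRNA 3′ processing, proliferating cells had 10 higher and 3 lower relative to freshly isolated cells, and none was higher and 10 were lower in myotubes than in proliferating cells. Slbp, which binds the stem-loop, had 967, 1031 and 792 in proliferating cells against 1349, 1131 and 1058 in freshly isolated cells (log2 difference -0.34 ± 0.14, adjusted p = 0.0413), and 570, 621 and 515 in myotubes (-0.70 ± 0.14 against proliferating cells, adjusted p = 0.00142). Lsm11, a protein of the U7 particle that cuts the RNA after the stem-loop, averaged 253 ± 23.4 in proliferating against 70.7 ± 20.1 in freshly isolated cells (SD, n = 3 each) and was higher by 1.86 ± 0.22 (adjusted p = 2.49e-05). Npat, the cyclin E-CDK2 substrate that turns on histone genes, averaged 1285 ± 77.1 in proliferating against 647 ± 85.3 in freshly isolated cells and was higher by 0.99 ± 0.11 (adjusted p = 1.76e-05). In myotubes against proliferating cells Npat differed by -0.44 ± 0.11 (adjusted p = 0.00712). Npat was one of those 14 and was counted again among 11 genes listed for control of histone gene transcription. That list also held the cycle genes Ccne1, Ccne2, Cdk2, Ccna2, E2f1, E2f4 and Wee1. Relative to freshly isolated cells, proliferating cells had 8 of the 11 higher and 3 lower. In myotubes against proliferating cells 1 was higher and 9 were lower. Pou2f1, the gene of the octamer-binding factor, was one of the 3 lower, with 1021, 1049 and 1042 in proliferating cells against 1983, 2549 and 2284 in freshly isolated cells (-1.12 ± 0.10, adjusted p = 3.85e-06).

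All 28 genes of a DNA replication list were higher in proliferating than in freshly isolated cells and 24 were lower in myotubes than in proliferating cells, with median log2 differences of 3.43 and -1.84. Their summed counts were 8078 to 9724 in freshly isolated cells, 68989 to 75899 in proliferating cells and 18087 to 25377 in myotubes. Of 12 genes for histone chaperones of S phase, 10 were higher and none was lower in proliferating cells against freshly isolated ones. In myotubes against proliferating cells 1 was higher and 8 were lower. Mcm2 was counted both in this list and in the replication list. Of 8 chaperones of replacement histones, 3 were higher and 3 lower in proliferating cells against freshly isolated ones, which is near the 37.6% and 35.7% of all tested genes. In myotubes against proliferating cells none of the 8 was higher and 4 were lower.

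The replacement histone genes took several courses. Of 11, 8 were higher and 2 lower in proliferating cells against freshly isolated ones, and 3 were higher and 6 lower in myotubes than in proliferating cells. The 3 higher in myotubes are near the 28.6% of all tested genes. H1f0, the linker histone of resting and differentiated cells, had 758, 255 and 411 in freshly isolated cells, 1221, 1367 and 1266 in proliferating cells and 3701, 3093 and 4224 in myotubes, with stages that did not overlap. It was higher in myotubes than in proliferating cells by 1.5 ± 0.31 (adjusted p = 0.00215). H3f3a, which encodes H3.3, had 482, 938 and 799, then 350, 405 and 333, and 855, 772 and 879, a course with its low point in proliferating cells (-0.98 ± 0.21 against freshly isolated cells, adjusted p = 0.00191, and 1.2 ± 0.21 in myotubes against proliferating cells, adjusted p = 0.000816). H3f3b, the other H3.3 gene, was lower at each step, by -0.38 ± 0.10 (adjusted p = 0.00515) and -0.87 ± 0.10 (adjusted p = 3.96e-05). H2afv, an H2A.Z gene, was higher in myotubes than in proliferating cells by 1.2 ± 0.17 (adjusted p = 0.000186). H2afx, the H2A variant phosphorylated at DNA breaks, averaged 2050 ± 74.2 in proliferating against 130 ± 53.5 in freshly isolated cells and 517 ± 68.6 in myotubes (SD, n = 3 each), a course like that of most replication-dependent genes.

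Within the proliferating stage, replicate 1 had the highest value of the 3 libraries for 29 of the 53 histone genes (54.7%, against 35% of all tested genes) and replicate 3 the lowest for 35 (66%, against 31.8%). The summed myotube markers (Myog, Myh3, Acta1, Ckm and Tnnt3) were 9789 in proliferating replicate 1 against 55276 and 40985 in replicates 2 and 3. Leaving out proliferating replicate 1 together with freshly isolated replicate 1 gave 36 histone genes lower in myotubes than in proliferating cells, and 4986 of all 17291 tested genes. The part of these differences between cultures in the histone values was not tested.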

How the data were processed

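Ribosome-depleted total RNA of 9 samples was sequenced from 100 ng input with a stranded kit, per the labels' protocols. Per the submitters' processing notes, the genome was mm10 (GRCm38), the aligner STAR 2.4.0a and the counter featureCounts 1.4.5-p1 of Subread. The strand setting, the read length and the treatment of reads with several matches are not given in the sources used here, so overlapping, antisense and near-identical genes are uncertain. The deposited score values are gene counts put on a common scale and rounded by the authors, so no count model was used. Columns of 1 stage were matched to the freshly isolated samples by elimination, since their names fit no other stage.

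The 68 genes were taken by symbol. Genes that reached 10 in 3 or more libraries (17291 of 45706) were tested with limma 3.58.1 in R 4.3.3 on log2(value + 1), with 1 mean per stage, a mean-variance trend and Benjamini-Hochberg adjustment over all tested genes. On this scale the added 1 shrinks the fold changes of low genes, while a 0 in a single library can raise them above the ratio of the means. On simulated data with 200 genes changed by 1 or 2 on the log2 scale, the median estimate of the larger change was close to it. Changes as large as those of most members against freshly isolated cells, from values near 0, were not simulated. Libraries held an estimated 12000000 to 24300000 reads, read from the spacing of low values, and a floor of 3 reads per library was used for genes at 0, which covers counting error only. Named genes were the 4 members with the highest mean in each family, every tested member of Hist2, Hist3 and Hist4, members called against the majority, and the 5 listed as polyadenylated. The members and lists were chosen with earlier results of these data known. Members were matched to GENCODE vM21 (66 by ID, 2 by symbol) for coordinates, transcripts and 50-base windows, and 62 to RefSeq promoters of GRCm38.p6 by their older symbols and position. No transcript of Hist1h2bc with a stem-loop was among those used.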

Additional observations from a re-analysis of the deposited data

Results flagged for a closer look

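Hist3h2bb-ps, a processed pseudogene outside the 68 protein-coding genes, had a mean normalized count of 13 in proliferating cells (15, 13 and 11) and 9, 7 and 10 in myotubes, against 0 in the 3 freshly isolated libraries. It was singled out because a signal appeared in a gene that the comparisons do not use. It was found in the table by its symbol after its values were seen, and 22.1% of the 50-base windows of Hist3h2ba occur in it.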

How the results depend on the processing

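The 3 genes higher in myotubes than in proliferating cells were called in each of the 20 alternatives. The count lower in myotubes than in proliferating cells was the least stable: 27 genes, 43 with a pseudocount of 8, 46 with only the 2 stages compared, and 15 to 44 over the fits that each left out 1 library. It was 18 with a pseudocount of 0.5, 21 with no filter, 36 with equal totals and 38 with quantile normalization. Over all 17291 tested genes the count lower was 4402, with 4491 and 4332 at pseudocounts of 8 and 0.5. It was 5416 with only the 2 stages compared, 4990 with equal totals and 5174 with quantile normalization. Over the fits that each left out 1 library it was 3695 to 5343. With no filter it was 4112 of 31904 genes. The single gene lower in proliferating cells against freshly isolated ones stood alone in all but 1 alternative; leaving out 1 library at a time gave 1 to 2, the second being Hist3h2a without freshly isolated replicate 1. Scaling to equal totals shifted the median of all genes by 0.29 between proliferating and freshly isolated cells and by -0.16 between myotubes and proliferating cells, and quantile normalization shifted myotubes against proliferating cells by -0.14. Of 1437 refits of the 72 log2 changes of named genes, 1149 kept a call, 203 stayed uncalled, 31 lost a call, 54 gained one and none changed sign after a call. Leaving out 1 library moved the fold by over 1.5 times for 22 of the 53 genes in proliferating and 24 in myotubes against freshly isolated cells, in each case for 13 when this was freshly isolated replicate 1.

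The same replicate numbers recur across stages, but same-numbered libraries did not deviate together (correlations of -0.0338 to 0.027 over all tested genes). Such low correlations cannot exclude a small effect shared by libraries of the same number. With the replicate number as a block, 25 histone genes were lower in myotubes than in proliferating cells, and 4245 of all 17291 tested genes. The freshly isolated values of most members rest on a few reads, also in replicates 2 and 3, at about 19400000 and 19300000 reads. With 3 libraries per stage, no exact test of 1 value can fall below 0.1.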

Other observations

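A lincRNA gene that carries the same symbol as the protein-coding Hist2h2bb was at 0, 19 and 8 in freshly isolated cells, 2, 0 and 1 in proliferating cells and 0, 1 and 0 in myotubes, so freshly isolated replicate 1 overlapped the cultured libraries. The antisense gene Gm20632, which covers Hist2h2aa2, had 11, 33 and 39 in freshly isolated cells, 6, 10 and 7 in proliferating cells and 22, 15 and 11 in myotubes. Gm20633, which covers Hist2h2aa1, had 17, 22 and 27, then 11, 7 and 10, and 23, 14 and 11. The H2A genes under both were listed at 0 in each library, and reads of the strands cannot be told apart here without the strand setting.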
